A study of Mus musculus with 17 samples.

Results

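The comparison was between forestomach RNA of mice that had received 25 mg/kg benzo(a)pyrene (BaP) per day and that of mice given olive oil alone. Samples were chosen by their titles, and 4 treated arrays (replicates 6 to 9) and 5 control arrays (replicates 1 to 5) met the rule, 9 of the 17 arrays in all. Every animal was an adult male MutaTMMouse, a strain that carries a bacterial lacZ reporter for scoring mutations, and was 24 to 26 weeks old. All received 28 daily gavages, of BaP in olive oil or of the oil alone, and were sampled 72 hours after the final gavage. The other 8 arrays, 4 at 50 mg/kg and 4 at 75 mg/kg, came from the same protocol and served here to estimate the spread and to set the 25 mg/kg values beside those at higher doses. The protocol names 5 animals per group, and 4 arrays carry the 25 mg/kg title. Each array held the RNA of 1 animal in the Cy5 channel and a common reference in Cy3 (Universal Mouse Reference RNA, pooled from 11 cell lines). Values below are log2 ratios of forestomach over reference, differences are treated minus control on that scale, and ± gives the standard error of the fit unless SD is written.

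BaP is a polycyclic aromatic hydrocarbon of smoke and charred food. It binds the aryl hydrocarbon receptor (AHR), which pairs with ARNT and switches on genes such as Cyp1a1 and Cyp1b1. These enzymes turn BaP into diol epoxides, which bind DNA as bulky adducts. Glutathione transferases detoxify the reactive forms, nucleotide excision repair removes the adducts, and p53 responds to the damage. The rodent forestomach is lined by a cornified squamous epithelium and is an established tumour site for BaP given by mouth. The comparison asks what differed in this tissue at the lowest of the 3 doses.

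The squamous identity of the samples was borne out by its markers. All 8 (Krt5, Krt14, Krt13, Krt4, Trp63, Lor, Ivl and Sprr3) were well above background on all 9 arrays. The log2 of their summed Cy5 signal was 18.89 to 19.24 in controls and 18.73 to 19.17 at 25 mg/kg. Lor alone, at 17.98 to 18.73 and 17.87 to 18.62, made up most of that sum. None of the 4 pancreas markers was above background on any of the 9 arrays. The share of probes well above background was 39.9% to 48.4% in controls and 42.3% to 46.3% at 25 mg/kg, and the group means did not differ beyond their spread (exact two-sided permutation test, p = 0.857, where the smallest p possible is 0.0159). The controls lay on 3 slides as 2, 2 and 1 arrays and the treated samples as 2, 1 and 1.

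A pair of arrays stood apart. Control replicate 2 carried signal of lymphoid tissue and blood: the B cell gene Cd79a, chosen after its values were seen, stood at 1.37 there against 0.03 to 0.16 in the other controls, and the red cell gene Slc4a1 stood at 5.71 against 0.07 to 0.32. Its median correlation with the other 16 arrays was 0.904, the lowest of the 17. Replicate 7 at 25 mg/kg carried signal of the glandular stomach: the acid pump subunit Atp4b stood at 6.53 against -0.08 to 2.14 in the other 3 treated arrays and -0.16 to 0.57 in controls. Both arrays were also low in the fat cell genes Adipoq, Plin1 and Cfd, but not in Fabp4 or Cidea. The adipokine Adipoq stood at 0.09 in control replicate 2 and 0.13 in replicate 7 against 1.70 to 5.40 on the other 7 arrays. In bulk tissue, fewer cells of a type and less RNA per cell cannot be told apart. For the genes that passed and for several lists, values without these arrays are also given.

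Of 21380 genes tested, 3 passed at 25 mg/kg, all higher than in controls: Fgf9, Ccl8 and Susd4 (0.014% of the genes tested; limma with Benjamini-Hochberg adjustment over all genes, threshold 0.05). No gene passed as lower. At an unadjusted p under 0.05, 449 genes were higher (2.1%) and 248 lower (1.16%), 3.26% of all, and 52.3% of all genes had a positive difference. With arrays centred on their medians in place of loess, that split was 465 higher and 7 lower, the median of all genes moved to 0.16 from 0.01, and no gene passed. The treated arrays all lay above the controls for 119 genes (0.557%) and all below for 92 (0.431%), together 0.988% of the 21358 genes with complete values.

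Fgf9 encodes a secreted fibroblast growth factor that acts through FGF receptors on neighbouring cells. Its log2 ratio was 0.78, 0.48, 0.57, 0.32 and 0.82 in control replicates 1 to 5. At 25 mg/kg it was 2.23, 1.71, 1.89 and 2.09 in replicates 6 to 9. The lowest treated array therefore lay well above the highest control. The difference was 1.39 ± 0.17 (95% interval 1.03 to 1.74), a 2.61-fold higher ratio, with an adjusted p of 0.00657. Within the 3 slides it was 1.34, 1.45 and 1.27, and with slide as a block the adjusted p was 0.000135. Fgf9 kept its call without any single array except replicate 6 (adjusted p = 0.0597) and replicate 9 (adjusted p = 0.0569). Its differences from the same controls at 50 and 75 mg/kg were 1.45 and 1.64. The difference between 75 and 25 mg/kg was 0.26 (95% interval -0.12 to 0.63, adjusted p = 1), and between 50 and 25 mg/kg it was 0.06 (95% interval -0.32 to 0.44, adjusted p = 1).

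Ccl8 encodes a chemokine that draws monocytes and other leukocytes into tissue. It had the largest difference of the 3 genes that passed. Controls stood at 1.85, 0.24, 0.77, 0.81 and 0.45, and treated arrays at 4.16, 2.11, 4.08 and 3.61. The groups did not overlap, but control replicate 1 (1.85) and treated replicate 7 (2.11) came close to each other, and both lay on slide 1. The difference was 2.66 ± 0.40 (95% interval 1.81 to 3.51), a 6.33-fold higher ratio, with an adjusted p of 0.0354. Within slides it was 2.08, 3.28 and 3.16, and with slide as a block the adjusted p was 0.0706. With the spread taken from the 9 compared arrays alone the adjusted p was 0.291. The call held without control replicate 1 (adjusted p = 0.014) and without replicate 7 (adjusted p = 0.0023). It was lost without control replicate 2 (0.132), 3 (0.134), 4 (0.164) or 5 (0.0858) and without treated replicate 6 (0.266), 8 (0.266) or 9 (0.21), while the difference stayed between 2.44 and 3.12 in all 9 omissions. From the same controls it was 3.67 at 50 and 3.96 at 75 mg/kg. The difference between 75 and 25 mg/kg was 1.30 (95% interval 0.40 to 2.19), which did not pass over all genes (adjusted p = 0.602).

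Susd4 encodes a membrane protein with sushi domains that restrains complement. Controls stood at 1.07, 1.47, 1.45, 1.11 and 1.19, and treated arrays at 2.14, 2.82, 2.04 and 2.25. The groups were separated, with replicate 7 the highest of the 9. The difference was 1.05 ± 0.16 (95% interval 0.72 to 1.39), a 2.07-fold higher ratio, with an adjusted p of 0.0354. Within slides it was 1.21, 0.75 and 1.06, and with slide as a block the adjusted p was 0.0706. With the spread taken from the 9 compared arrays alone the adjusted p was 0.267. It did not pass without control replicate 1 (0.161), 2 (0.0666), 3 (0.0861), 4 (0.164) or 5 (0.0858), nor without treated replicate 6 (0.121), 7 (0.0796), 8 (0.054) or 9 (0.21), and the difference lay between 0.88 and 1.14. From the same controls it was 1.00 at 50 and 1.09 at 75 mg/kg. The difference between 75 and 25 mg/kg was 0.04 (95% interval -0.32 to 0.39, adjusted p = 1).

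**Figure D1:**
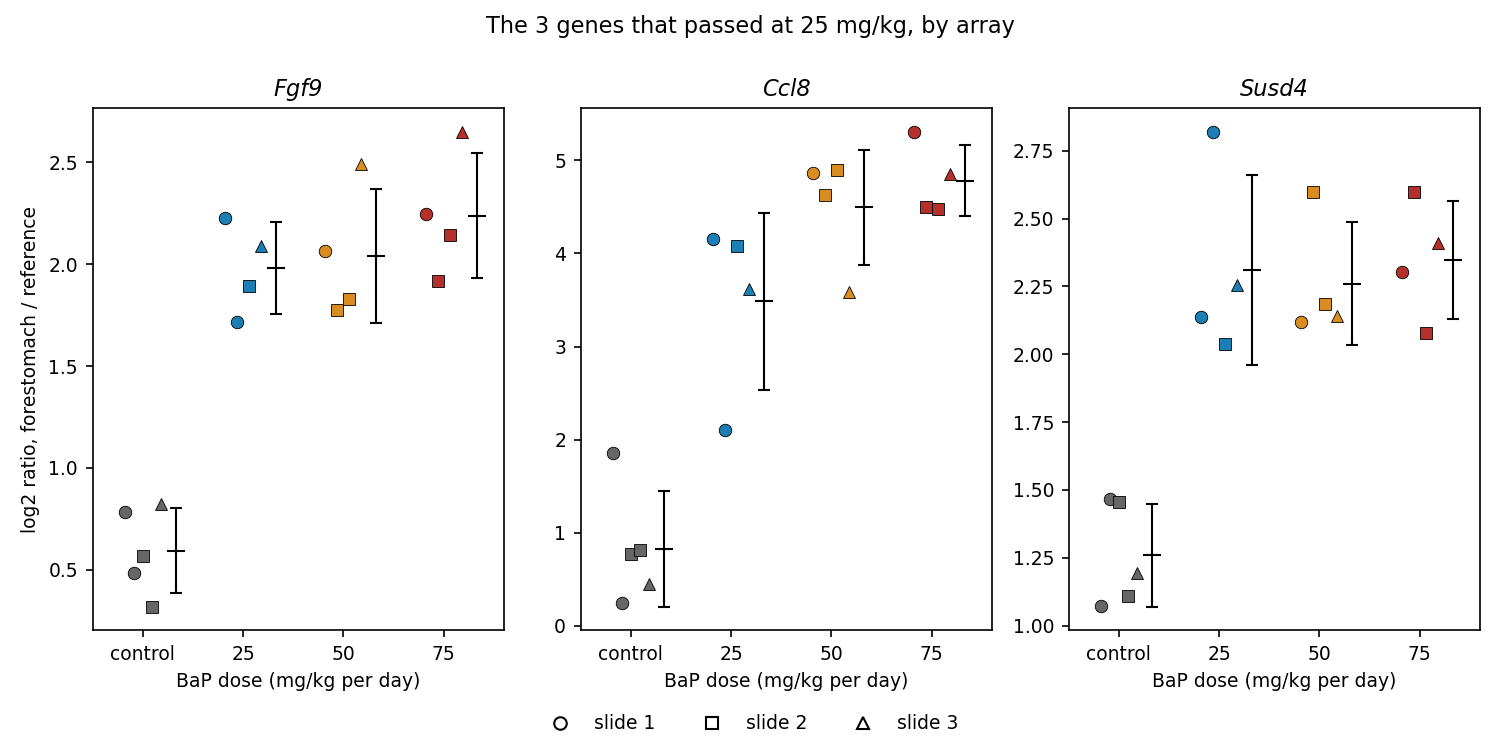
Log2 ratio of forestomach over reference RNA for Fgf9, Ccl8 and Susd4 in each of the 17 arrays by daily BaP dose, with point shape for the slide and a bar for mean and SD. All 4 arrays at 25 mg/kg lie above all 5 controls in each panel, and Ccl8 in 1 treated array (2.11) lies close to the highest control (1.85).

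The sequence upstream of the start of these 3 genes is shown because they were the genes that passed. Each run holds the 250 bases before an annotated start, 5′ to 3′ on the gene's strand, from RefSeq on GRCm38.p6, where all 3 symbols matched; all are on the plus strand. Capitals mark matches on either strand to GCGTG, the core that AHR-ARNT binds, or to TGACNNNGC, the core of the antioxidant response element; the 2 do not overlap in these windows. The Fgf9 window is chr14:58072436-58072685, that of Ccl8 chr11:82114935-82115184, and those of the 2 annotated Susd4 starts chr1:182763966-182764215 and chr1:182764646-182764895.
Fgf9: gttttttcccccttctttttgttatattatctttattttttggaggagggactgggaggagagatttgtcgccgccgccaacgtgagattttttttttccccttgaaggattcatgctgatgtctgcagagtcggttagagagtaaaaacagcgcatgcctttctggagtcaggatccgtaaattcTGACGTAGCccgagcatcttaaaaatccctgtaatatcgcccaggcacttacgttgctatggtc
Ccl8: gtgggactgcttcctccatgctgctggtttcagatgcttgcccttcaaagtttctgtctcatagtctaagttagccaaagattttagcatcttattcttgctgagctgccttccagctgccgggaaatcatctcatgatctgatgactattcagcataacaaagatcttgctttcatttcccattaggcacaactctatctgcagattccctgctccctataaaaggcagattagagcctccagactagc
Susd4 start 1: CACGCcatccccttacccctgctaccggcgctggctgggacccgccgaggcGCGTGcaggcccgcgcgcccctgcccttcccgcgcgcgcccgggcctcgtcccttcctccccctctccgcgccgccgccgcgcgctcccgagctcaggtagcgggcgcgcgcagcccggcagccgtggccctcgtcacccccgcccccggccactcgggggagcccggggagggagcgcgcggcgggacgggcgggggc
Susd4 start 2: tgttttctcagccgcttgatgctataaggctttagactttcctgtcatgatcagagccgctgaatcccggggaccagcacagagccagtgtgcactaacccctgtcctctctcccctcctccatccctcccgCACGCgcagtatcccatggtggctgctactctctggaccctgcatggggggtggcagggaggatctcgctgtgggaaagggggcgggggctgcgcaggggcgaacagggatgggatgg
GCGTG was found 2 times before the first Susd4 start and 1 time before the second, and not before Fgf9 or Ccl8. TGACNNNGC was found 1 time, before Fgf9. Of 32851 windows of this length in the table, 28.2% held GCGTG and 10.2% TGACNNNGC. A match describes letters and not a bound site.

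The genes with the next smallest p did not pass and are given as values. Nlrc5, the transactivator of MHC class I genes, stood at 0.03 to 0.72 in controls and 1.04 to 1.84 at 25 mg/kg, a difference of 1.14 ± 0.24 (adjusted p = 0.67). A second, dimmer probe of Nlrc5 gave 0.29, so the size rests on the brighter one. Klra4, an activating Ly49 receptor of natural killer cells, stood at -0.82 to -0.17 in controls and 0.41 to 0.64 at 25 mg/kg, a difference of 0.92 ± 0.20. Ppp2r2c, a regulatory subunit of protein phosphatase 2A, stood at 0.68 to 2.07 against 2.10 to 2.65 (1.20 ± 0.25), and its adjusted p was 0.67 without and 0.0706 with slide as a block. Treated arrays lay above all controls for each of these genes.

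Ccl12, a second monocyte chemokine, differed by 1.00 ± 0.23, with controls at -0.63 to -0.15 and treated arrays at -0.01 to 1.07. Its lowest treated array was again replicate 7. Ms4a7, a membrane protein of macrophages, differed by 0.68 ± 0.19, with replicate 7 at -0.67 among controls of -1.04 to -0.37 and the other 3 treated arrays at 0.21 to 0.37. Cgas, the cytosolic DNA sensor, differed by 0.45 ± 0.12 (0.08 ± 0.13 by its second probe) and Serpinb3c, a serpin of squamous epithelium, by 1.12 ± 0.30, both without overlap between the groups for the probe used. The transcription factor gene Foxq1 differed by 0.73 ± 0.19 and the carboxylesterase gene Ces2b by 1.36 ± 0.35. For both, replicate 7 was the highest array.

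Genes lower at 25 mg/kg had small differences. Pcdh19, a protocadherin, stood at -2.01 to -1.72 in controls and -2.47 to -2.11 at 25 mg/kg (-0.44 ± 0.10). Acsl4, an enzyme that activates long-chain fatty acids, differed by -0.50 ± 0.13 and the ubiquitin ligase gene Rnf144a by -0.46 ± 0.12, and neither overlapped between the groups. Rnf144a was well above background on 2 of 4 treated arrays. Its control replicate 2 stood at 0.91 against 0.40 to 0.52 in the other controls. Clec2i, a C-type lectin, differed by -0.71 ± 0.20 with overlap. The other genes named by smallest p were Plxna2 (0.53), Pisd (0.39), Dglucy (0.53, and 0.24 by a second probe), Fuz (0.44), 2300002M23Rik (0.80), Washc2 (0.33), Slc35f3 (0.42), Ldhd (0.53), Tmem181a (0.49), Gpt (0.42) and Dpy19l3 (-0.34), none of which passed.

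**Figure D2:**
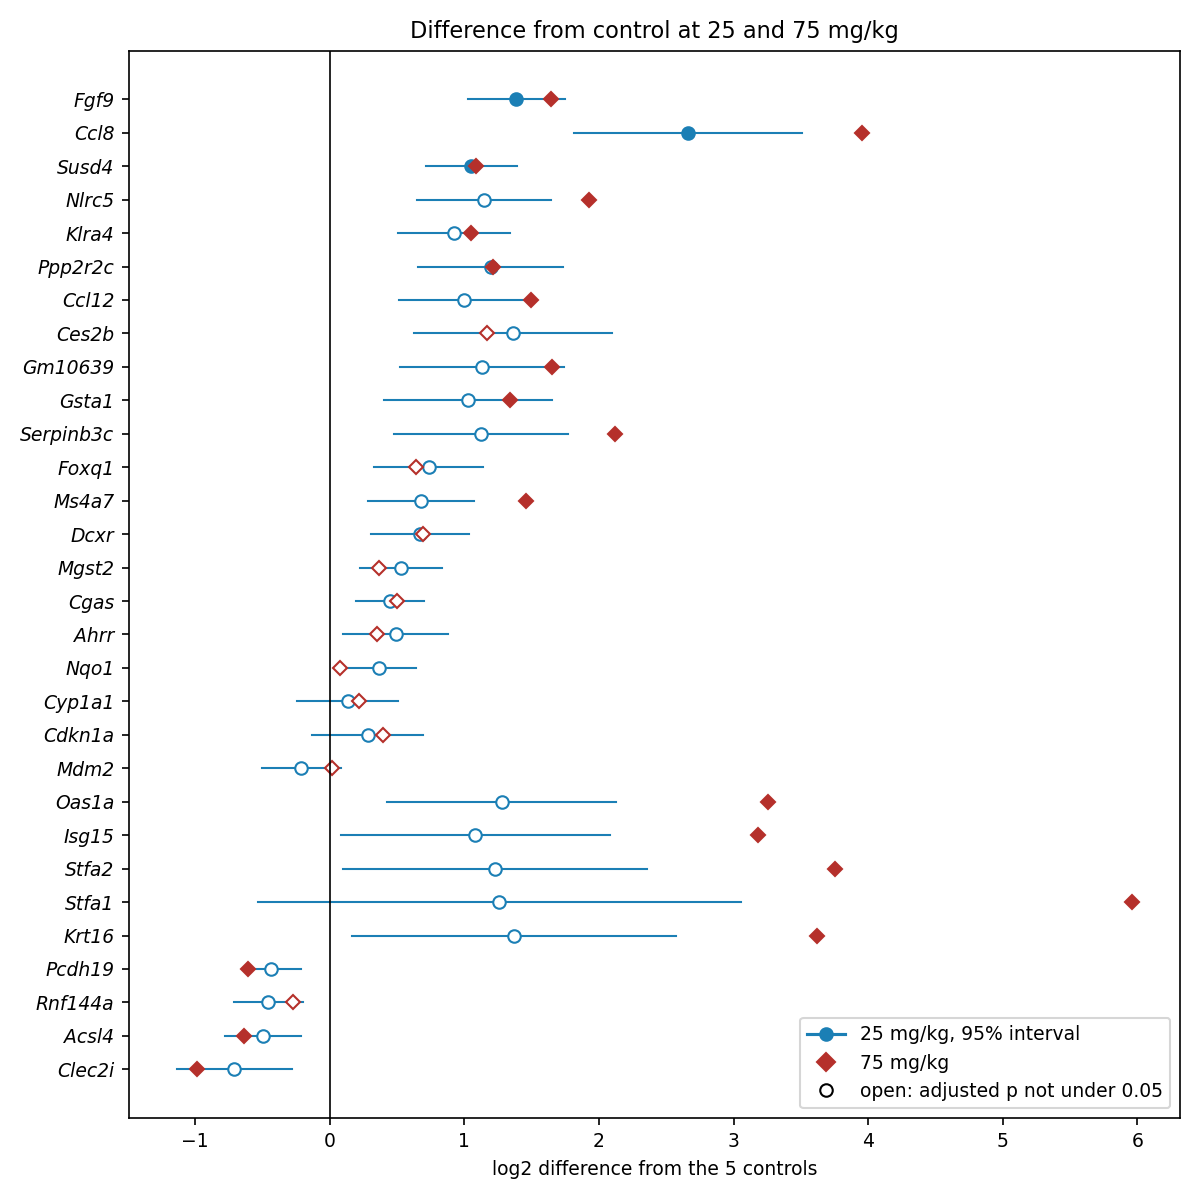
Difference from the 5 controls on the log2 scale for 30 genes, with circles and 95% intervals for 25 mg/kg and diamonds for 75 mg/kg; filled symbols passed at an adjusted p under 0.05. Fgf9 (1.39 and 1.64) and Susd4 (1.05 and 1.09) have close values at the 2 doses, while Stfa1 (1.26 and 5.96) and Oas1a (1.28 and 3.26) lie far apart.

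Genes of the AHR battery were measured for 13 of 15 members, and none passed. Their median difference was 0.13, against 0.01 over all genes, and 12 of 13 were positive. At an unadjusted p under 0.05, 3 were higher and none lower, where 2.1% of all genes were higher (1.16% were lower). Cyp1a1, the enzyme that oxidises BaP, stood at 0.53, -0.04, 0.25, 0.80 and 0.14 in controls and 0.17, 0.68, 0.51 and 0.51 at 25 mg/kg, and was well above background on 2 of 5 and 1 of 4 arrays. The difference was 0.13 ± 0.18 (95% interval -0.24 to 0.51). Cyp1b1, a second BaP oxidase, differed by -0.29 ± 0.20, and Tiparp, an AHR target that restrains the receptor, by 0.03 ± 0.12 (-0.25 ± 0.15 by its second probe). Ahrr, the AHR repressor, stood at -0.01 to 0.59 in controls and 0.67 to 0.87 at 25 mg/kg, without overlap (0.49 ± 0.18, unadjusted p = 0.0169). Nqo1, a quinone reductase, differed by 0.36 ± 0.13 (unadjusted p = 0.0142), with treated arrays at 2.26 to 2.67 and controls at 1.99 to 2.54.

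Glutathione transferase genes outside that battery were all measured (20 of 20), and none passed. The median difference was 0.24, with 18 positive and 2 negative. At an unadjusted p under 0.05, 5 were higher, against 2.1% of all genes. Mgst2, a membrane-bound transferase, differed by 0.53 ± 0.14, Gstm2 by 0.32, Gsta4 by 0.44, Gstm4 by 0.44 and Gsta3 by 0.53. Within slides the list's median was 0.34, 0.36 and -0.06, and control replicate 5, the only control on slide 3, had the highest transferase level of the controls. Gsta1, which is in the AHR list, stood at 3.18 to 4.33 in controls and at 4.28, 5.5, 4.18 and 4.72 at 25 mg/kg (1.03 ± 0.30, unadjusted p = 0.00289). Gm10639 lies between Gsta1 and Gsta2 in the RefSeq gene order and stood at 3.41 to 4.75 against 4.84 to 5.81, a difference of 1.13 ± 0.29 without overlap. Its second probe gave 0.68 ± 0.37. Gsta2 differed by 0.33 ± 0.24. These copies are similar enough that their probes may share signal. At 75 mg/kg all of Gsta1 (1.34), Gm10639 (1.65) and Gsta2 (1.09) passed against the same controls, though the second probe of Gm10639 did not (1.09, adjusted p = 0.269 over all probes). At that dose 1.1% of all genes passed, 0.893% as higher and 0.21% as lower.

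Among 24 antioxidant genes under NRF2, which senses electrophiles, the median difference was 0.07 and none passed. The cystine transporter gene Slc7a11 differed by 0.31 ± 0.22 at 25 mg/kg and by 1.27 at 75 mg/kg, where it passed. The 12 measured BaP-metabolising genes outside the AHR battery had a median of 0.12 and a range of -0.16 to 0.27.

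Genes switched on by p53 were measured for 35 of 38 members, with a median difference of 0.10 and 25 positive. None passed. At an unadjusted p under 0.05, 4 were higher, against 2.1% of all genes: Dcxr (0.67 ± 0.17), Zmat3 (0.42), Aen (0.26) and Pmaip1 (0.34 ± 0.14). Dcxr, a carbonyl reductase, stood at -0.47 to 0.08 in controls and 0.25 to 0.85 at 25 mg/kg, without overlap. Pmaip1, which encodes the apoptosis inducer Noxa, was well above background on 1 of 5 controls and 4 of 4 treated arrays. The cell cycle inhibitor Cdkn1a differed by 0.28 ± 0.19 (95% interval -0.13 to 0.69), and its second probe gave 0.09. Mdm2, the p53 ubiquitin ligase, differed by -0.21 ± 0.14, Ccng1 by 0.34 ± 0.19, the apoptosis genes Bax by 0.14 ± 0.09 and Bbc3 by 0.25 ± 0.13. At 75 mg/kg 5 members passed as higher against the same controls, where 0.893% of all genes did. These members included Pmaip1 at 1.06, Bbc3 at 0.80 and Bax at 0.39. Genes that repair or bypass bulky adducts (29 measured) had a median of 0.01, from -0.33 for the ligase gene Lig1 to 0.19 for the damage sensor gene Rad23b, and none passed.

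Interferon-induced genes were measured for 49 of 61 members. None passed at 25 mg/kg, the median difference was 0.28 and 42 were positive. At an unadjusted p under 0.05, 9 were higher and none lower, against 2.1% and 1.16% of all genes. Rsad2 had the lowest difference of the list (-0.81 ± 0.70), with control replicate 2 at 3.05 and the other controls at -1.62 to -1.17. Oas1a, which makes the activator of RNase L, stood at -3.55, -2.87, -3.32, -3.08 and -3.33 in controls and -2.65, -2.54, -0.88 and -1.73 at 25 mg/kg. The groups did not overlap, and replicates 8 and 9 stood well above 6 and 7. The difference was 1.28 ± 0.40 (unadjusted p = 0.00564), and its dimmer probe gave 0.34. Isg15, a ubiquitin-like modifier, stood at -1.94, -0.41, -1.75, -1.88 and -2.28 in controls and -1.06, -1.52, 0.12 and 0.18 at 25 mg/kg, so control replicate 2 lay above 2 of the treated arrays (1.08 ± 0.47). Its second probe gave 0.62 ± 0.32. Within slides the list's median was 0.10, 0.36 and 0.55, and it was 0.36 without treated replicate 7 and 0.33 without control replicate 2. Medians against the same controls were 0.79 at 50 and 1.10 at 75 mg/kg, where 29 members passed as higher, against 0.893% of all genes.

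MHC class I genes, which present peptides to cytotoxic T cells, were mostly positive too. Of 24 measured members, 19 were positive with a median of 0.48 and none passed. At an unadjusted p under 0.05, 6 were higher, against 2.1% of all genes. H2-K1, a classical class I heavy chain, stood at -0.38, 0.58, -0.31, -0.06 and -0.58 in controls and 0.38, 0.19, 0.94 and 0.79 at 25 mg/kg (0.72 ± 0.32), with control replicate 2 inside the treated range. B2m, the light chain, differed by 0.52 ± 0.34. H2-T24 had the lowest difference of the list (-0.31 ± 0.19). Within slides the median of the list was 0.03, 0.64 and 0.68, and slide 1 held both arrays that stood apart. At 75 mg/kg the median was 1.13 and 14 members passed as higher, against 0.893% of all genes. Of 22 measured cytokines and chemokines, Ccl8 alone passed, and the interferon-induced chemokine Cxcl10 differed by 0.63 (unadjusted p = 0.139). Cxcl13 had the lowest difference of the 22 (-0.98 ± 0.67), with control replicate 2 at 4.59. Class II genes had a median of 0.23, and 0.50 without control replicate 2.

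Without both arrays that stood apart, 6 genes passed, all higher: Fgf9, Ccl8, Susd4, Ms4a7 (0.97 ± 0.15, adjusted p = 0.0405), Aif1 (1.06 ± 0.16, adjusted p = 0.0405) and H2-DMb1 (1.05 ± 0.15, adjusted p = 0.0247). This omission was chosen after the data were seen. Aif1 is a calcium-binding protein of macrophages and H2-DMb1 a class II peptide loading subunit, and both were named after their values were seen. With all 9 arrays Aif1 differed by 0.34 ± 0.40: controls stood at -0.34 to 0.01 apart from replicate 2 at 2.29, and treated arrays at 0.77 to 1.00 apart from replicate 7 at 0.01. H2-DMb1 stood at 0.50 to 0.80 in controls apart from replicate 2 at 2.78, and at 1.02 to 1.97 at 25 mg/kg. The 21 measured macrophage and Langerhans cell genes had a median of 0.03 with all arrays and 0.28 without control replicate 2.

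Stefin A genes encode cysteine protease inhibitors of stressed epithelium and granulocytes, and lie in a cluster of near-identical copies that probes may not tell apart. Of 7 measured members none passed in the fit of all arrays, and the median difference was 0.33. Stfa1 stood at 0.32, 0.67, 0.33, 0.59 and 0.55 in controls and 1.35, 1.80, 1.97 and 1.89 at 25 mg/kg. It was well above background on 3 of 5 controls and 4 of 4 treated arrays, so its control level and spread rest in part on dim values. Stfa2 stood at 1.41, 1.07, 1.02, 1.17 and 1.02 in controls and 2.11, 2.65, 2.57 and 2.14 at 25 mg/kg. Neither gene overlapped between the groups, and the spread within each was small. The differences were 1.26 ± 0.85 and 1.23 ± 0.53 with the spread taken from all 17 arrays, which included values of up to 8.42 for Stfa1 at the higher doses. That of Stfa1 was 2.53 with Agilent's processed signals, without passing. With the spread taken from the 9 compared arrays the standard error of both was 0.14, and both passed (adjusted p = 0.0327 each) together with Fgf9, while Ccl8 (0.291) and Susd4 (0.267) did not. Stfa2l1 differed by 0.67 ± 0.43, also without overlap. Stfa3, the lowest of the 7, differed by -0.11 ± 0.63 with overlap.

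The stress keratins, which mark activated or hyperplastic squamous epithelium, had differences of 1.37 for Krt16, 0.83 for Krt6b and 0.86 for Krt17, and none passed. Krt6a, listed here with the suprabasal keratins, differed by 0.65 ± 0.56 and did not pass. Krt16 stood at 2.12, 0.22, 0.56, 0.48 and 1.91 in controls and 2.43, 2.35, 2.31 and 2.61 at 25 mg/kg. The treated arrays lay in a narrow band just above control replicates 1 and 5. At 75 mg/kg it passed with a difference of 3.62, and the difference between 75 and 25 mg/kg was 2.25 (adjusted p = 0.334). Within slides the median of Krt16, Krt6b and Krt17 was 0.83, 1.72 and -0.06.

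The layers of the epithelium showed small values. Of 45 measured cornified envelope genes 38 were positive with a median of 0.29, and none passed. Sprr2e, a cross-linked envelope protein, differed by 0.78 ± 0.31 and Sprr1b by 0.98 ± 0.58, with control replicate 5 (3.94) above all treated arrays. The basal keratins Krt5 (-0.01 ± 0.14, and 0.70 ± 0.37 by a second probe) and Krt14 (0.08 ± 0.19) and the suprabasal keratins Krt13 (0.14 ± 0.26) and Krt4 (0.13 ± 0.26) did not differ beyond their spread. The lists of basal and of suprabasal keratinocyte genes had medians of 0.17 and 0.19. Among 23 alarmins and antimicrobial genes the median was 0.25, and Defb14, a beta-defensin, differed by 1.11 ± 0.34 (unadjusted p = 0.00471) with replicate 7 (3.70) below control replicates 1 and 5. S100a9, a calprotectin subunit, stood at 5.20 to 5.96 in treated arrays and at 2.84 to 4.93 in controls apart from replicate 2 at 6.75 (1.28 ± 0.65). S100a8, the other subunit, had the lowest difference of the list (-0.88 ± 0.98), with control replicate 2 at 2.44. It was well above background on 2 of 5 controls and 2 of 4 treated arrays.

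Proliferation genes had a median of -0.13 over 29 members, and 0.07 without control replicate 2. With arrays centred on their medians it was 0.10, where the median of all genes was 0.16. Mki67 differed by -0.26 ± 0.38 and Top2a by -0.16 ± 0.21. Ccnd1, the G1 cyclin, differed by 0.36 ± 0.11 (unadjusted p = 0.00475), with treated arrays at -0.46 to -0.19 and controls at -0.82 to -0.34. The 22 measured genes mutated in squamous tumours had a median of 0.09, and the 10 EGF family genes 0.17, with none passed in either list.

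**Figure D3:**
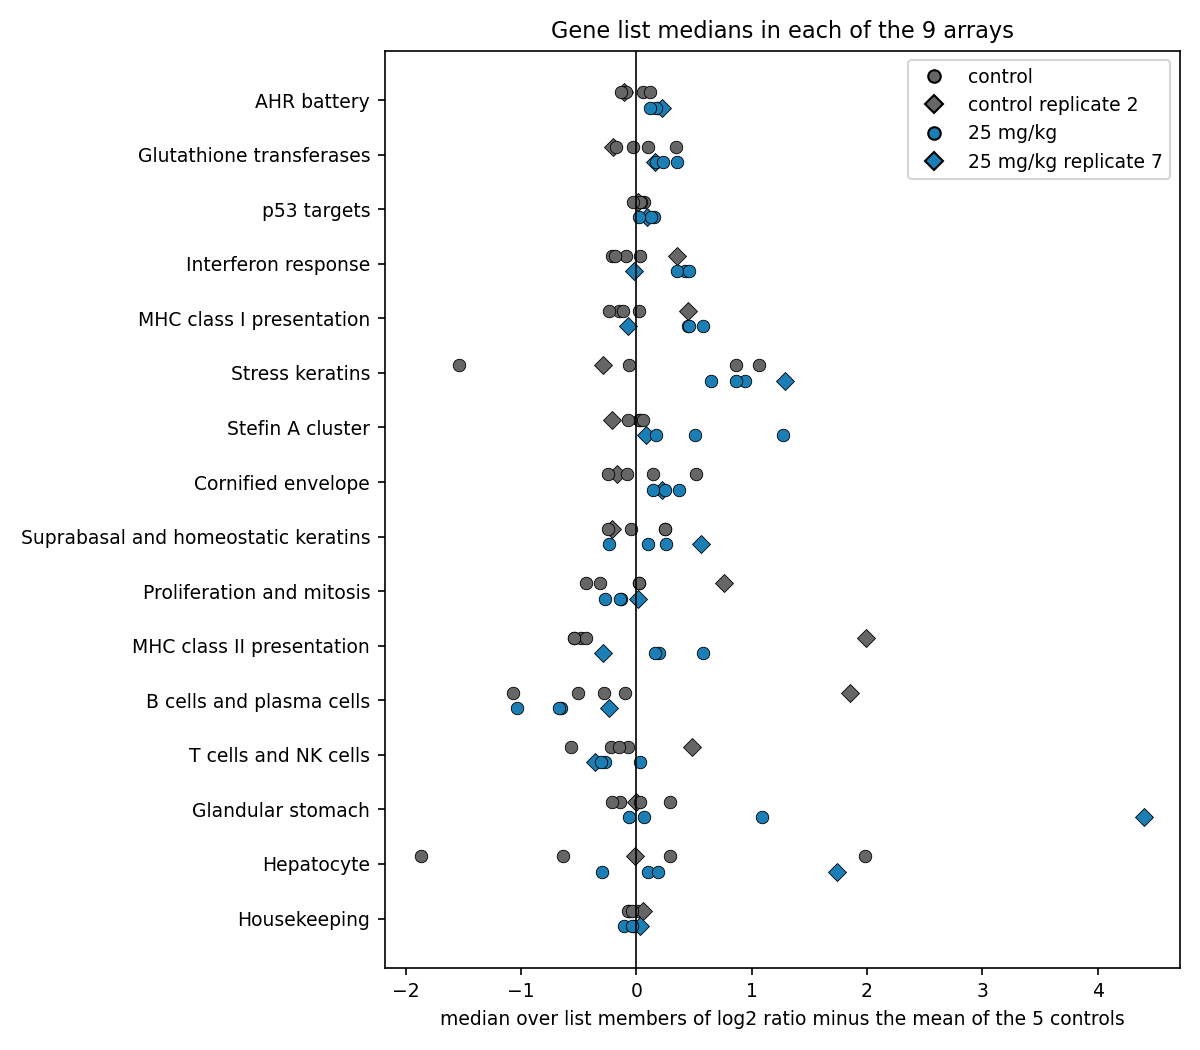
Median over the members of 16 gene lists of the log2 ratio minus the mean of the 5 controls, in each of the 9 arrays; diamonds mark control replicate 2 and treated replicate 7. Control replicate 2 lies far to the right for B cells (1.85) and class II presentation (1.99), and replicate 7 for the glandular stomach (4.4).

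Glandular stomach genes had the largest list median, 1.65 over 14 measured members, all positive, and none passed. At an unadjusted p under 0.05, 5 were higher, against 2.1% of all genes. Per array the list's median relative to the control mean was 0.07, 4.4, -0.06 and 1.09 in treated replicates 6 to 9. The log2 of the summed Cy5 signal of the 7 defining markers was 9.26 to 12.79 in controls and 10.11, 18.94, 9.65 and 14.04 at 25 mg/kg. Without replicate 7 the list's median was 0.46. Gkn2, a gastrokine of surface mucous cells, stood at -0.05 to 0.86 in controls apart from replicate 5 at 4.15, and at 1.17, 7.85, 0.40 and 5.38 at 25 mg/kg. The part of this signal in the other differences was not tested. Without replicate 7, Fgf9 and Ccl8 passed and Susd4 did not (adjusted p = 0.0796).

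Other tissue markers followed single arrays. B cell genes had a median of -0.66, and -0.13 without control replicate 2. T and natural killer cell genes had -0.23, and 0.00 without it. The lymphocyte markers Cd79a and Cd8a were each above background in control replicate 2 alone of the 9 arrays. Liver genes had a median of 0.39, -0.13 without treated replicate 7, in which Alb stood at 4.94, and -0.05 without control replicate 5. Adipocyte genes had 0.16, -0.03 without control replicate 2 and -0.20 without treated replicate 6. Red blood cell genes (0.11, and 0.60 without control replicate 2) and neutrophil and eosinophil genes (-0.12, and -0.01 without it) held none that passed. Those of striated muscle (-0.13) and pancreas (0.10) also held none. Mast cell (0.08), smooth muscle (-0.07), endothelium (0.07), fibroblast (-0.03) and enteric nerve and glia genes (0.06) had medians close to that of all genes. Those of smooth muscle and fibroblasts were 0.20 and 0.21 with arrays centred on their medians, where the median of all genes was 0.16. Per array the smooth muscle median was -0.02, 0.44, -0.81 and 0.01 in treated replicates 6 to 9 and -0.27 to 0.28 in controls. Within slides it was 0.23, -0.71 and 0.03. Lists for fatty acid oxidation (0.00), cholesterol synthesis (0.08), the circadian clock (0.15), ER stress (0.05), immediate early genes (-0.10, and 0.10 with median centring), apoptosis (0.03), retinoid handling (0.12), neuropeptides (-0.02), noncoding and epigenetic genes (0.06) and housekeeping (0.00) held no gene that passed.

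A small set of genes separated the 25 mg/kg group from the highest dose. Between 75 and 25 mg/kg 13 genes passed (0.0608% of those tested), 7 higher and 6 lower at 75 mg/kg, while between 50 and 25 mg/kg none did (213 higher and 269 lower at an unadjusted p under 0.05). With slide as a block the count for 75 against 25 mg/kg was 32, among them all 13. Grip1 had the smallest adjusted p of the 13 (1.31, adjusted p = 0.00689). The other genes given here are only those named for the comparison of 25 mg/kg with control. Grp, which encodes the gut neuropeptide gastrin-releasing peptide, stood at 2.81 to 3.99 in controls and 2.69 to 4.00 at 25 mg/kg, a difference of -0.07 ± 0.27. Its difference from the same controls was -1.36 at 50 and -2.14 at 75 mg/kg, and 75 against 25 mg/kg gave -2.07 (adjusted p = 0.0176). Tac1 (-0.29 ± 0.24) and Cartpt (-0.24 ± 0.31), neuropeptide genes that passed as lower at 75 mg/kg, did not pass in the direct test between the doses (adjusted p = 0.18 and 0.331).

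Chil4, a chitinase-like protein of inflamed epithelium, was not well above background on any control and on 1 of 4 arrays at 25 mg/kg, and 75 against 25 mg/kg gave 4.66 (adjusted p = 0.0192), a size that rests on dim values at 25 mg/kg. Defb3, a beta-defensin, was not well above background on any of the 9 arrays, so no fold is given for 25 mg/kg against control. It was at least 3.65-fold higher at 75 than at 25 mg/kg (adjusted p = 0.0302, mean log2 ratios 2.32 and 0.19), a bound on the Cy5 signal that takes, per array, the higher of the probe and the dimmest probe well above background, and is open to dye bias. Stfa2l1 differed between those doses by 2.75 (adjusted p = 0.0302), while Stfa1 (4.70, adjusted p = 0.075) and Stfa2 (2.53, adjusted p = 0.164) did not pass. Eno3, the muscle enolase, stood at 0.71 to 1.32 in controls and 0.12 to 0.80 at 25 mg/kg (-0.40 ± 0.15), and 75 against 25 mg/kg gave -0.99 (adjusted p = 0.0302). Angptl4, an inhibitor of lipoprotein lipase that answers to PPARs, stood at 0.55 to 1.12 in controls and at 1.13, 0.61, -0.79 and -0.13 at 25 mg/kg, so replicates 8 and 9 lay below all controls and 6 and 7 did not.

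**Figure D4:**
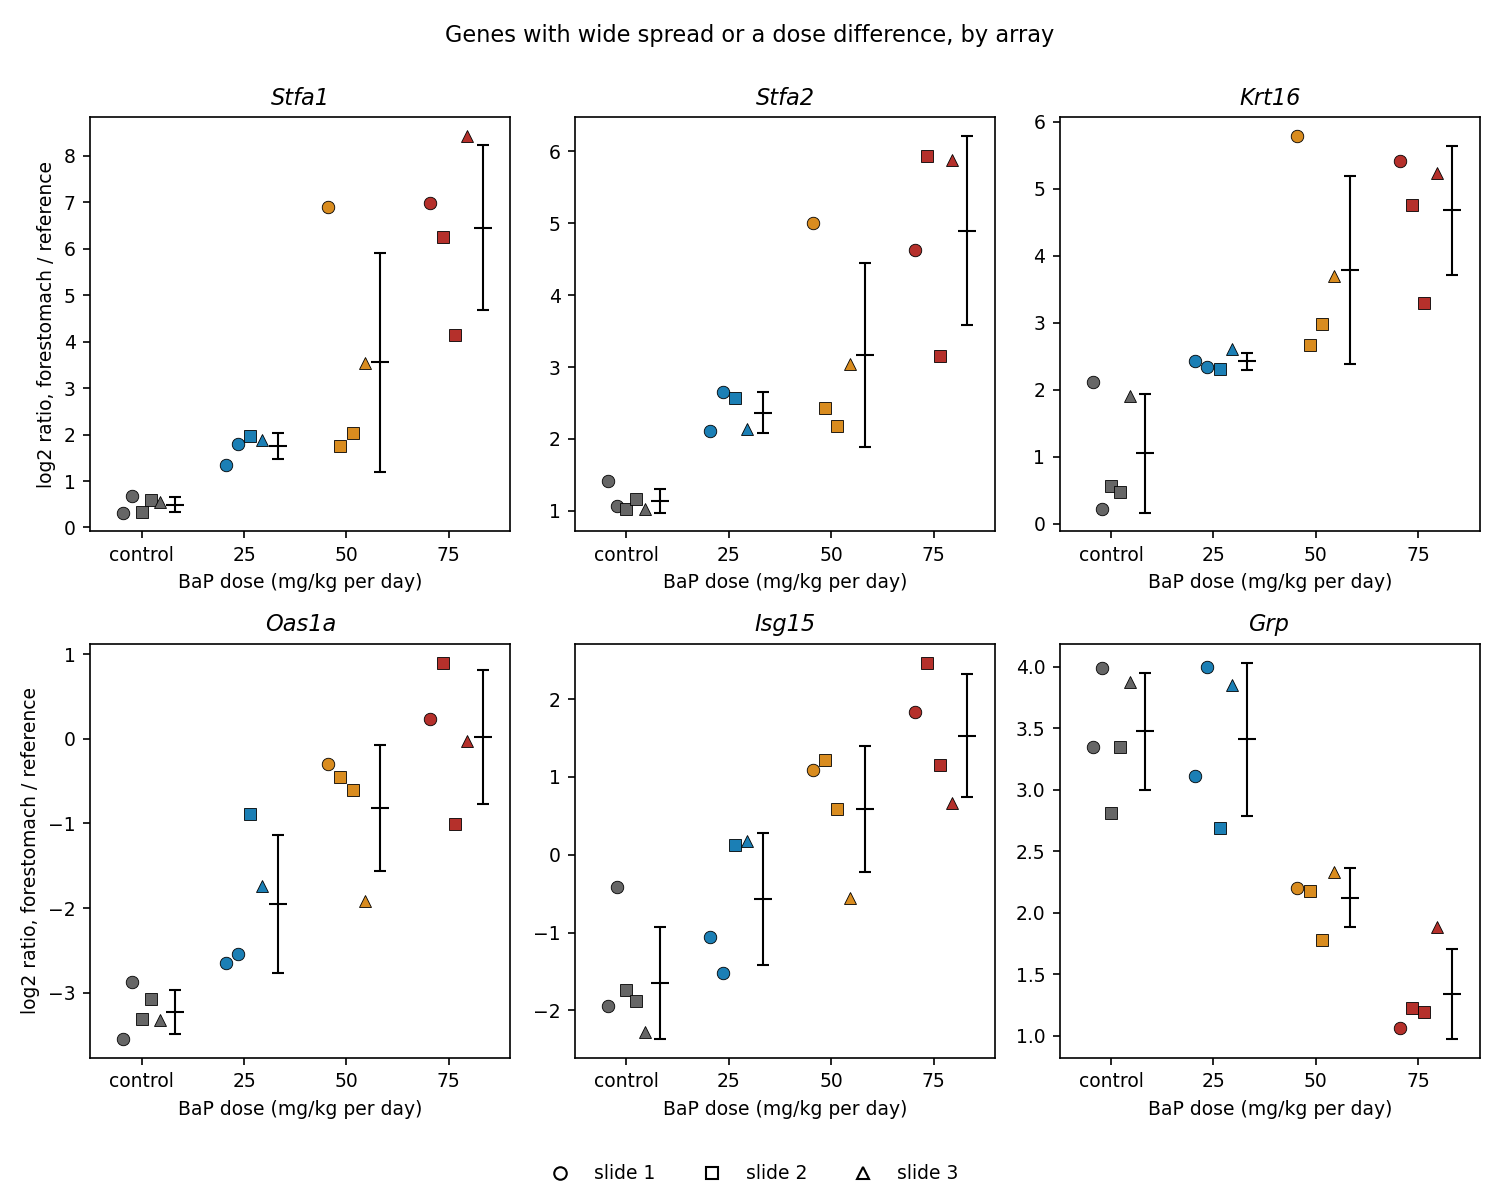
Log2 ratio of forestomach over reference RNA for Stfa1, Stfa2, Krt16, Oas1a, Isg15 and Grp in each of the 17 arrays by daily BaP dose, with point shape for the slide and a bar for mean and SD. Stfa1 spans 1.35 to 1.97 at 25 mg/kg and reaches 8.42 at 75 mg/kg, and Grp at 25 mg/kg (2.69 to 4.00) overlaps the controls (2.81 to 3.99).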

How the data were processed

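Per the file headers, the authors deposited intensity tables from Feature Extraction 10.7.3.1, with median signal and background for both channels. A log2 table of the series was also deposited. Its scale is not given in the sources used here; it correlated at 0.998 to 0.999 with loess-normalized log2 ratios (Cy5 over Cy3) from signals with no background removed, and served as an alternative. Intensities were corrected with normexp (offset 50) and normalized by loess within each array, control spots at weight 0 and outlier spots left out. Of 55681 probes, 27570 passed the scanner's background test in Cy5 (well above background) on 4 or more of 17 arrays, and the brightest probe per gene gave 21380 genes, 13851 with a symbol through RefSeq transcripts. No dyes were swapped. Differences were tested with limma 3.58.1 (R 4.3.3; lmFit and eBayes, 4 group means, two-sided, Benjamini-Hochberg over all genes, threshold 0.05); the fit was tested on simulated data. Each array is 1 animal. The p-values rest on the spread between animals within the 4 groups of all 17 arrays, higher doses included. The 4 and 5 animals compared limit the precision.

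The genes named were those that passed, those with the smallest p until 30 were named, the members with the smallest p and the highest and lowest difference in each of 44 lists, and a fixed set of AHR, p53, interferon, keratin, stefin, neuropeptide and lipid genes. Not every gene named by this rule has its difference printed above. The comparison and the lists were chosen with earlier results of these data known, so they lend no independent support. Each dose was set against the same 5 controls, so the differences at 25, 50 and 75 mg/kg are not independent of each other. Alternatives covered background, normalization, the filter on dim probes, the choice of probe, the arrays in the fit, the slide and leaving out each array. One marker gene is not reported here.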

Additional observations from a re-analysis of the deposited data

Results flagged for a closer look

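For 154 named genes, the highest or lowest array of each group was compared with the rest of its group by Dixon's gap test. Chance alone marks about 1 in 20 groups. That rate does not hold for genes named for the highest or lowest difference in a list, which 1 outlying array can bring about. In all, 27 values were marked. Control replicate 2 accounted for 11: it was high for S100a8 (2.44), Cxcl13 (4.59), Rsad2 (3.05), H2-Oa (2.66), Ms4a1 (2.13), Clec9a (1.86), Slc4a1 (5.71), Isg15 (-0.41), Mki67 (-0.82) and Rnf144a (0.91), and low for Ctrb1 (-0.16). These include B cell, dendritic cell, granulocyte and red cell genes.

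Replicate 7 at 25 mg/kg accounted for 6. It was low for Serpinb3c (6.69), Ms4a7 (-0.67), Sox2 (2.46), Rps18 (-0.45) and Bax (-0.99), and high for Alb (4.94). Control replicate 5 was high for Pisd (-0.80), Col17a1 (5.52), Gkn2 (4.15) and Nqo1 (2.54) and low for Kdr (0.42). Control replicate 4 was high for Mcpt2 (0.15), which was not well above background on any control. Replicate 8 at 25 mg/kg was low for Sesn1 (1.08) and high for Stfa3 (5.20), and replicate 9 was high for Vwf (2.70) and low for Arntl (-0.50).

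Among the 154 named genes, 5 differed between 75 and 25 mg/kg in the direct test. Stfa2l1 (2.75), Chil4 (4.66) and Defb3 (2.13 as measured) were higher at 75 mg/kg, and Grp (-2.07) and Eno3 (-0.99) were lower. Defb3 was dim throughout the 25 mg/kg group, so its size is a bound of at least 3.65-fold, and that for Chil4 rests on a group in which 1 of 4 arrays cleared background.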

How the results depend on the processing

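In place of 3 genes at 25 mg/kg, 2 passed with an offset of 16 or with scale normalization, 1 with Agilent's processed signals, the Cy5 channel alone, no filter on dim probes, slide as a fixed block, or an intensity trend with a robust prior, and 0 with arrays centred on the median (465 higher and 7 lower at an unadjusted p under 0.05). With only the 9 compared arrays 3 genes passed, Fgf9, Stfa1 and Stfa2, while Ccl8 (adjusted p = 0.291) and Susd4 (adjusted p = 0.267) did not. Leaving out each array in turn gave 0 to 2. Leaving out control replicate 2 and treated replicate 7 together, an alternative chosen after seeing the data, gave 6, and 6 with slide as a block. Fgf9 passed in each of these settings except median centring (adjusted p = 0.0788) and without treated replicate 6 or 9. No difference of a named gene that passed changed sign in any setting. For 75 against 25 mg/kg, slide as a fixed block gave 32 genes in place of 13. No paired analysis was possible because the replicate numbers of the groups are not shared. The number of animals, 4 and 5, and the signal over background of dim probes such as Cyp1a1 limit what these arrays can show. The causes of these changes were not tested.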

Other observations

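Among 2504 probes named by their position in mm9, 28 were higher and 44 lower at 25 mg/kg at an unadjusted p under 0.05, and none passed after limma's Benjamini-Hochberg adjustment. The 5 with the smallest p were chosen after their values were seen, and all were higher at 25 mg/kg. A forward-strand probe on chromosome 4 (149445201 to 149445902) differed by 0.66 ± 0.13 (adjusted p = 0.648) without overlap between the groups, and by 1.06 at 75 mg/kg. A pair of overlapping forward-strand probe regions on chromosome 9 (78104935 to 78116974 and 78107225 to 78118850) differed by 1.02 and 1.15. Probes on chromosome 10 (83181374 to 83249774) and chromosome 2 (158169020 to 158191295) differed by 0.70 and 0.44.

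Several further genes, also chosen after their values were seen, had treated arrays above all controls without passing. Plau, the urokinase protease that activates plasminogen, stood at -1.01 to 0.81 in controls and 1.02 to 1.43 at 25 mg/kg (1.29, unadjusted p = 0.00496), while its difference at 75 mg/kg was 0.14. Fgf1, a fibroblast growth factor, stood at 3.18 to 3.58 at 25 mg/kg and below that in all controls (0.54, unadjusted p = 0.00426). Mlkl, the executor of necroptosis, differed by 0.53 and Il20ra, a receptor chain for interleukin 20 cytokines, by 0.73. Mgmt, which repairs alkylated guanine, stood at -1.27 to -0.76 in controls and -0.70 to -0.31 at 25 mg/kg (0.40, unadjusted p = 0.0227).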
